A study of Mus musculus with 16 samples.

Results

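Heat shock proteins of the cytosol are chaperones that bind unfolded or newly made proteins, and 10 of their transcripts were followed here in inguinal white adipose tissue (iWAT), a subcutaneous fat depot of the mouse. They were listed by name as Hspa1a, Hspa1b, Hspa8, Hsp90aa1, Hsp90ab1, Hsph1, Dnajb1, Hspb1, Hspe1 and Hspd1, and all 10 were found among the 54752 gene IDs of the count table. The label of the group is cytosolic, but the products of Hspd1 (HSP60) and Hspe1 (HSP10) are known as the chaperonin of the mitochondrial matrix.

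The 16 libraries came from 4 genotypes with 4 libraries each, and all are labelled as C57BL/6 females of 90 days. WT mice carried neither allele. Lepob/+ mice were heterozygous for the obese allele of leptin. SOD1G93A mice carried a high number of copies of a mutant human SOD1 transgene, inserted as a genomic array and not restricted to one cell type, and are used as a model of amyotrophic lateral sclerosis. SOD1G93A-Lepob/+ mice carried both. Total counts lay between 36.8 and 61.9 M per library. The mouse Sod1 gene gave 277 to 497 CPM (a gene's count scaled to a common library size after TMM normalisation) over all libraries. It does not measure the human transgene, so it is no check of the SOD1G93A genotype, and the ob allele, a point mutation, likewise cannot be read from the level of Lep. The 8 adipocyte markers were all present in every library and summed to 13270 to 30800 CPM, but the libraries differed in other cells. T cell markers summed to 549.9 to 1106 CPM in 6 libraries (WT 1 and 2, Lepob/+ 3, SOD1G93A 1, 2 and 4), which also held lymph node transcripts, and to 8.21 to 26.8 CPM in the other 10. Skeletal muscle markers summed to 159600 CPM in Lepob/+ 4, to 4009 CPM in WT 3 and to at most 224 CPM elsewhere. The library SOD1G93A-Lepob/+ 3, labelled female, had 0 counts of Xist and 1756 counts of 4 Y-linked genes, so the comparison of SOD1G93A-Lepob/+ with SOD1G93A is also given without it.

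In the textbook scheme, HSP70 proteins bind exposed hydrophobic stretches and release them on ATP exchange, helped by J-domain proteins such as DNAJB1 and by exchange factors such as HSPH1, and then pass some clients to HSP90. Hspa8, Hsp90ab1 and the chaperonin genes are expressed at all times. Hspa1a and Hspa1b, Dnajb1, Hsph1, Hspb1 and Hsp90aa1 are well-known targets of heat shock factor 1. That factor binds repeats of a short unit, the heat shock element, when unfolded protein accumulates. Expression at all times does not keep a gene from being a target as well. Small heat shock proteins such as HSPB1 hold clients without ATP.

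The promoters are shown because the heat shock element is read there. RefSeq windows on GRCm38.p6, reaching from 250 bases before to 50 bases after a start, were held for 7 of the 10 genes (10 windows), the others being Hspa8, Hsp90aa1 and Hsp90ab1. Each was searched on both strands for a pair of opposed units, GAANNTTC or TTCNNGAA, which may overlap one another. A match stood in 7 windows from 6 genes, beside 15.06% of all 32851 windows, and the third alternating unit followed the pair in 4 windows (1 of Hspd1, 1 of Hspe1 and both of Hsph1), beside 0.6% of all windows. The Hspd1 and Hspe1 windows overlap head to head, so theirs is one site read from both strands. Both Hsph1 windows also overlap and hold the same matches, so counts of windows are not counts of separate sites. The 150 bases before the start are given below for 6 genes, 5′ to 3′ on the gene's strand, with matches in capitals. They lie at chr17:34972157-34972306 (Hspa1a, minus), chr17:34959239-34959388 (Hspa1b, minus), chr8:83608025-83608174 (Dnajb1, plus), chr5:135887769-135887918 (Hspb1, plus), chr5:149636316-149636465 (Hsph1, minus) and chr1:55087998-55088147 (Hspe1, plus).
Hspa1a: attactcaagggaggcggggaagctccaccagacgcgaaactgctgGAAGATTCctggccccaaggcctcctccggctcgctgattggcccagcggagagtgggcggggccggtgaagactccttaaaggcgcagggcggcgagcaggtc
Hspa1b: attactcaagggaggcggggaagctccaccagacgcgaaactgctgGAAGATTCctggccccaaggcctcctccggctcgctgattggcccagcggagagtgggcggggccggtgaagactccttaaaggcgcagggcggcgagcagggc
Dnajb1: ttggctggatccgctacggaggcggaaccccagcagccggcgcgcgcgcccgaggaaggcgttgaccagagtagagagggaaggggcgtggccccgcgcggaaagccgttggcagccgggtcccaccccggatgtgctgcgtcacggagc
Hspb1: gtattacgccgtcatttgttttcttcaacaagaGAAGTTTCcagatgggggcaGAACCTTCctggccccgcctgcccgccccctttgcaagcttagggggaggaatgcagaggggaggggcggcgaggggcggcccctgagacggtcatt
Hsph1: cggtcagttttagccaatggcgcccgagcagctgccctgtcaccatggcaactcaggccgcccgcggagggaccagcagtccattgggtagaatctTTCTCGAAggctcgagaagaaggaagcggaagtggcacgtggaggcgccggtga
Hspe1: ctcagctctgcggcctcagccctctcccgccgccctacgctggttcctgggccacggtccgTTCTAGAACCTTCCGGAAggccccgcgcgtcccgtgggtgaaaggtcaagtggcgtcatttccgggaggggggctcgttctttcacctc
Hspa1a and Hspa1b differed at 1 of these 150 bases and at 4 of the 300 bases of the whole window, and shared a match that begins at -104. Hspb1 held 2 pairs, and Hspe1 held the run of alternating units. In Hsph1 the pair before the RefSeq start of this window is shown, and its run of 3 units lies after that start. The GENCODE annotation places the Hsph1 start further upstream, at 149636376, so the printed pair lies after the GENCODE start. No match stood in the Dnajb1 windows, which says only that these letters are not in them.

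The level of the 10 transcripts spanned more than an order of magnitude. Per kilobase of exon and averaged over the 16 libraries, Hsp90ab1, the constitutive HSP90, was highest at 341 CPM per kb. It was followed by Hspa8, the constitutive HSP70, at 131 CPM per kb, by Hspd1, which ranged from 84.0 to 122 CPM per kb, and by Hspb1 at 57.3. Hspe1 stood at 45.6 CPM per kb and Hsp90aa1, the inducible HSP90, at 32.6. Hspa1b (12.9), Dnajb1 (11.97), Hspa1a (6.39) and Hsph1 (4.77) were lowest on the same scale. The lowest Hsp90ab1 value, 300.0 CPM per kb, lay above the highest Hspa8 value, 215. All other neighbours in this order overlapped in their range over the libraries.

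All 10 passed the filter on low counts, the smallest count being 454 reads (Hspa1a), so counting error was small beside the spread over all 16 libraries. The most even were Hspe1, with a coefficient of variation of 11.2% over the 16 libraries, and Dnajb1 with 12.9%. Hspb1 (57.6%) and Hsph1 (49.0%) varied most. The mean summed level of the 10 transcripts was 2057 ± 68 CPM (WT, SD, n = 4), 2400 ± 575 (Lepob/+), 2222 ± 79 (SOD1G93A) and 2258 ± 295 (SOD1G93A-Lepob/+), and the widest spread, in Lepob/+, came with 1 library at 3257 CPM. That library, Lepob/+ 4, had the lowest TMM factor, 0.6644, which raises every CPM in it.

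**Figure D1:**
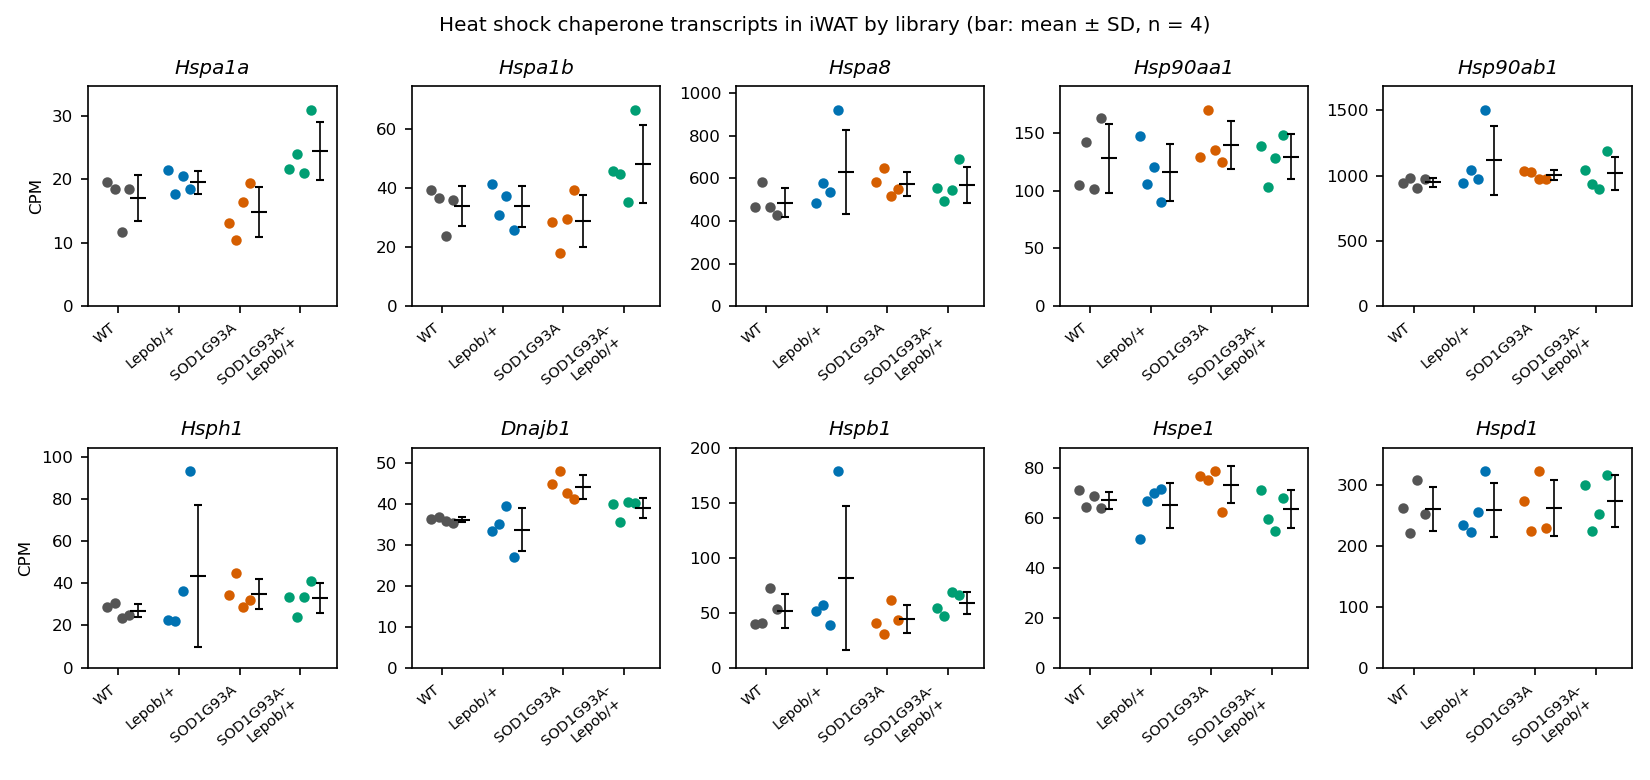
CPM of each of the 10 transcripts (vertical axes, from 0) in the 4 libraries of each genotype (points, replicates 1 to 4 from left to right), with the mean and SD beside them. Hspa1a lies higher in all SOD1G93A-Lepob/+ than in all SOD1G93A libraries, Dnajb1 is highest in the 4 SOD1G93A libraries, and 1 Lepob/+ library stands far above the rest for Hspa8, Hsp90ab1, Hsph1 and Hspb1.

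None of the 10 transcripts differed between genotypes at an adjusted p under 0.05. In edgeR's quasi-likelihood test with Benjamini-Hochberg adjustment over 19736 genes, 0 of 10 passed in any of 7 comparisons, beside 0% of all genes in each. DESeq2 called 1 member in 1 comparison, Hspa1a in SOD1G93A-Lepob/+ against SOD1G93A (adjusted p = 0.0438), where it called 1.84% of all genes. It called 0 members in Lepob/+ against WT (0.00325% of all genes), SOD1G93A against WT (0.00976%), the average Lepob/+ effect (0.156%), the average SOD1G93A effect (0.127%), the interaction (0.166%) and any difference (0.0586%). At an unadjusted p under 0.05, edgeR counted 0 of 10 in Lepob/+ against WT (4.37% of all genes), 1 in SOD1G93A against WT (2.56%) and 2 in SOD1G93A-Lepob/+ against SOD1G93A (16.5%). It counted 1 for the average Lepob/+ effect (9.64%), 1 for the average SOD1G93A effect (3.2%), 0 for the interaction (7.98%) and 2 for any difference among the 4 genotypes (6.15%). The median log2 fold change of the 10 was 0.09 in Lepob/+ against WT, 0.10 in SOD1G93A against WT and 0.00 in SOD1G93A-Lepob/+ against SOD1G93A, where all tested genes had medians of 0.03, 0.02 and 0.00. Without the library SOD1G93A-Lepob/+ 3, the log2 fold changes of SOD1G93A-Lepob/+ against SOD1G93A other than those of Hspa1a and Hspa1b lay between -0.20 (Dnajb1) and 0.34 (Hspb1), with Hspe1 at -0.14, and the smallest unadjusted p among these 8 was 0.127 (edgeR). SOD1G93A libraries enter both of the last comparisons between genotypes, so those are not independent. Nothing in the labels says that the 4 libraries of a genotype came from separate litters or days, so p-values measure the spread between these libraries.

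**Figure D2:**
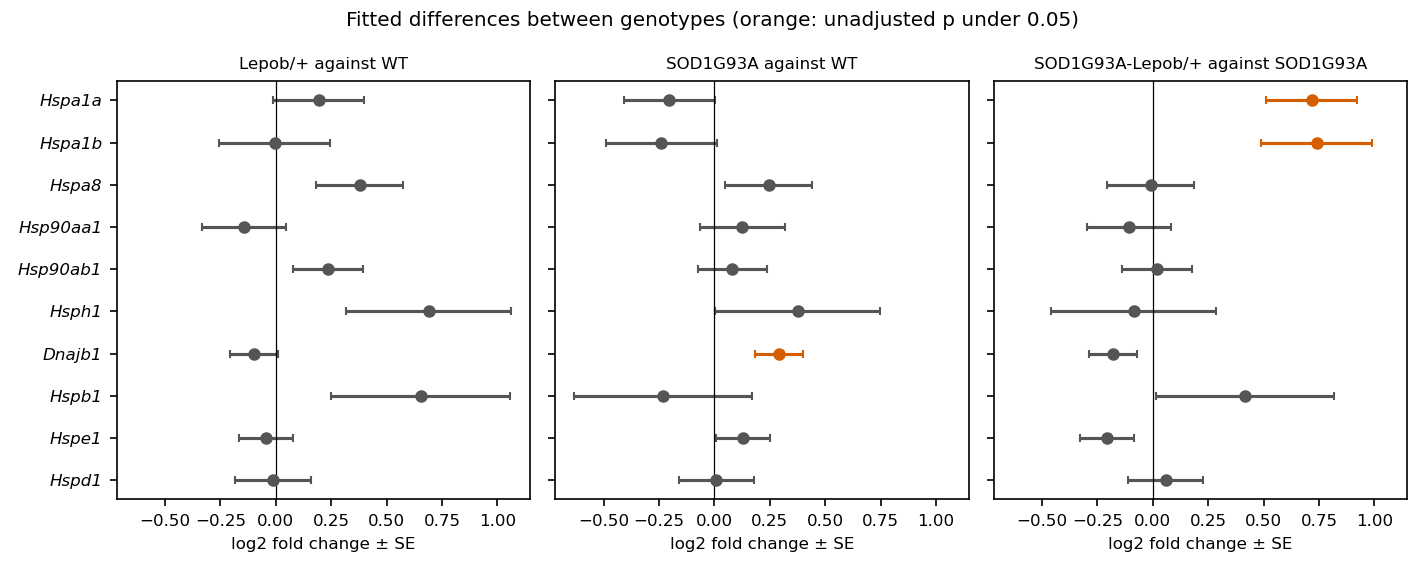
Fitted log2 fold change with its standard error (horizontal axis) for the 10 transcripts (vertical axis) in the 3 comparisons between genotypes, 4 libraries each. Orange marks an unadjusted p under 0.05, reached by Dnajb1 in SOD1G93A against WT (0.29) and by Hspa1a (0.72) and Hspa1b (0.74) in SOD1G93A-Lepob/+ against SOD1G93A.

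The stress-inducible HSP70 pair had its highest levels in SOD1G93A-Lepob/+ fat. Hspa1a (chr17:34969190-34972156, minus strand, GRCm38) and Hspa1b (chr17:34956436-34959238, minus strand) are neighbouring single-exon genes with nearly the same protein. Hspa1a was at 21.7, 23.9, 21.02 and 31.0 CPM in SOD1G93A-Lepob/+ libraries 1 to 4 and at 13.1, 10.4, 16.5 and 19.4 CPM in the SOD1G93A libraries. All 4 values of the first lay above all 4 of the second, a separation in either direction that 7.18% of all tested genes showed in this comparison. WT libraries gave 19.6, 18.5, 11.7 and 18.5 CPM of Hspa1a, and Lepob/+ libraries gave 21.5, 17.6, 20.5 and 18.5 CPM. WT and Lepob/+ overlapped with each other and with SOD1G93A, and SOD1G93A-Lepob/+ overlapped with Lepob/+ through 1 library of each.

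The fitted log2 fold change of Hspa1a in SOD1G93A-Lepob/+ against SOD1G93A was 0.72 ± 0.21 (SE; edgeR unadjusted p = 0.00356, adjusted p = 0.261), and over all alternatives the adjusted p ran from 0.0438 (DESeq2) to 1. In Lepob/+ against WT it was 0.19 ± 0.20, and the difference between those effects, the interaction, was 0.52 ± 0.29 (edgeR unadjusted p = 0.0913, adjusted p = 0.564). Averaged over both SOD1 backgrounds, the Lepob/+ effect on Hspa1a was 0.45 ± 0.14 (edgeR unadjusted p = 0.00716, adjusted p = 0.512), and without SOD1G93A-Lepob/+ 3 it was 0.49 (unadjusted p = 0.00686) and the interaction 0.59 (unadjusted p = 0.0745). Ordered by mean, Hspa1a went from SOD1G93A (14.8 ± 3.9 CPM, SD, n = 4) over WT (17.1 ± 3.6) and Lepob/+ (19.5 ± 1.8) to SOD1G93A-Lepob/+ (24.4 ± 4.6), and each neighbour in that order overlapped with the next.

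Hspa1b showed the same order at its ends with a wider spread. It was at 45.7, 44.9, 35.4 and 66.7 CPM in SOD1G93A-Lepob/+ and at 28.5, 17.9, 29.5 and 39.4 CPM in SOD1G93A libraries, with 1 value of each genotype inside the range of the other. WT gave 39.2, 36.8, 23.9 and 36.2 CPM and Lepob/+ gave 41.3, 30.9, 37.5 and 25.8 CPM. The log2 fold change of SOD1G93A-Lepob/+ against SOD1G93A was 0.74 ± 0.25 (edgeR unadjusted p = 0.0103, adjusted p = 0.261). That in Lepob/+ against WT was -0.01 ± 0.25, and the interaction was 0.75 ± 0.35 (edgeR unadjusted p = 0.0526, adjusted p = 0.564). Without SOD1G93A-Lepob/+ 3 the interaction was 0.87 ± 0.36 (unadjusted p = 0.0291, adjusted p = 0.639).

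Hspa1b exceeded Hspa1a 1.90 ± 0.20 times (SD, n = 16 libraries), and the ratio was lowest, 1.40, in Lepob/+ 4. Log2 CPM of the pair correlated with r = 0.93 over the 16 libraries and 0.97 without Lepob/+ 4, which is given as a description. Of the 100-base stretches of Hspa1a exons, 47.07% occur unchanged in Hspa1b, and only uniquely mapped reads were counted, so a read from a shared stretch may be missing from both. Hspa1a also overlaps exons of Gm20481, on the other strand, by 564 bases, and reads of such a pair cannot be told apart unless strand was used in counting. With the pair's counts summed, the log2 fold change was 0.73 ± 0.23 in SOD1G93A-Lepob/+ against SOD1G93A (edgeR unadjusted p = 0.0064, adjusted p = 0.261).

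The pair's level was lowest and highest in the same libraries as epithelial transcripts. The female inguinal depot contains mammary ducts, and a list of 6 mammary epithelium markers (Epcam, Krt8, Krt18, Krt14, Krt5, Csn3) had a mean log2 CPM of 4.76 to 6.56 over the libraries. The lowest was in SOD1G93A 2, where Hspa1a and Hspa1b were also lowest, and the highest in SOD1G93A-Lepob/+ 4, where both were highest. Over 16 libraries r was 0.61 for Hspa1a and 0.74 for Hspa1b, and 0.52 and 0.67 without the 2 libraries farthest from the median of the markers. The points share libraries and depth, and the correlation has no test. In SOD1G93A-Lepob/+ against SOD1G93A, 4 of the 6 markers were higher and 2 lower. Of the 6, 3 were higher at an unadjusted p under 0.05 (edgeR), beside 827 of all 19736 tested genes. No marker of the 6 was at 0 in any library, and their summed level was 271.8 to 582.8 CPM in SOD1G93A and 316.4 to 1075 CPM in SOD1G93A-Lepob/+ libraries. The 316.4 CPM (mean log2 CPM 4.88) was in SOD1G93A-Lepob/+ 3, the library with 0 counts of Xist. Its Hspa1a level was 21.02 CPM, above the highest SOD1G93A value of 19.4 CPM. The correlations, marker counts and covariate fit of this paragraph include that library. With the marker mean as a covariate, the difference between these genotypes was 0.58 ± 0.17 for Hspa1a (edgeR unadjusted p = 0.0047, adjusted p = 0.145) and 0.54 ± 0.18 for Hspa1b (unadjusted p = 0.00996, adjusted p = 0.145). In bulk tissue, fewer cells of a type and less RNA per cell cannot be told apart. The part of epithelial content in the genotype difference was otherwise not tested.

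Lymph node content is confounded with this comparison, since 3 of 4 SOD1G93A and 0 of 4 SOD1G93A-Lepob/+ libraries were among the 6 rich in lymph node transcripts. Of the lymph node markers, Chst4 was at 0 counts in 10 libraries and Glycam1 in 9. The 1 SOD1G93A library without them had 16.5 CPM of Hspa1a, below the lowest SOD1G93A-Lepob/+ value of 21.02. With the lymph node markers as a covariate the log2 fold change was 0.78 ± 0.24 for Hspa1a (edgeR unadjusted p = 0.00614, adjusted p = 1). Without SOD1G93A-Lepob/+ 3 it was 0.78 (unadjusted p = 0.00372, adjusted p = 0.379) and for Hspa1b 0.86 (unadjusted p = 0.00536, adjusted p = 0.379). Without SOD1G93A-Lepob/+ 4, the library with the highest values, it was 0.58 for Hspa1a (unadjusted p = 0.0159) and 0.54 for Hspa1b (unadjusted p = 0.0472), both with an adjusted p of 0.392.

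**Figure D3:**
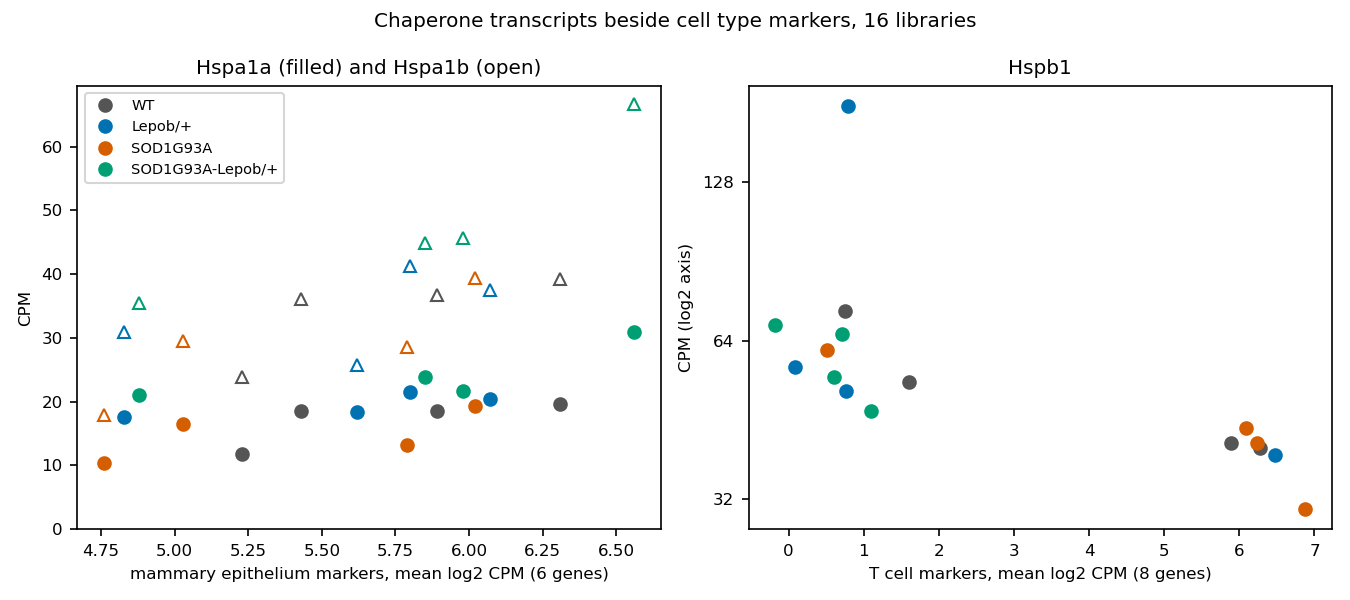
Left, CPM of Hspa1a (filled) and Hspa1b (open) against the mean log2 CPM of 6 mammary epithelium markers, and right, CPM of Hspb1 (log2 axis) against the mean log2 CPM of 8 T cell markers, 1 point per library and colour by genotype. The pair is lowest at the left edge (4.76) and highest at the right edge (6.56), and Hspb1 is at most 43.6 CPM in the 6 libraries with high T cell markers.

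Dnajb1 was the 1 member whose SOD1G93A libraries all lay above the other 12 libraries. DNAJB1, the J-domain protein that delivers clients to HSP70 (chr8:83608193-83612653, plus strand, GRCm38), had transcript levels of 44.9, 48.1, 42.8 and 41.3 CPM in the SOD1G93A libraries. WT libraries gave 36.4, 36.9, 36.0 and 35.5 CPM, a coefficient of variation of 1.6%. Counting error alone would give more, as no library held over 2477 reads of Dnajb1, so these values understate the WT spread. Lepob/+ libraries gave 33.4, 35.2, 39.5 and 27.0 CPM, and SOD1G93A-Lepob/+ libraries gave 39.9, 35.6, 40.6 and 40.2 CPM. The 4 SOD1G93A values lay above all of the other 12, as they did for 9 of the tested genes (0.0456%). Every member was looked at in this way in each genotype and both directions, and the share was counted for this case only. The separation from WT alone, in either direction, was shared by 2.05% of genes, and in Lepob/+ against WT, where 0.907% of genes separated, no member did.

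The log2 fold change of Dnajb1 in SOD1G93A against WT was 0.29 ± 0.11 (edgeR unadjusted p = 0.0172, adjusted p = 0.998), and its adjusted p ran from 0.607 to 1 over the alternatives. In SOD1G93A-Lepob/+ against SOD1G93A it was -0.18 ± 0.11 (unadjusted p = 0.118, adjusted p = 0.406), with no overlap between the libraries, as for 7.18% of all genes. The average SOD1G93A effect over both leptin backgrounds was 0.25 ± 0.08 (edgeR unadjusted p = 0.00535, adjusted p = 1), and the interaction was -0.08 ± 0.15 (unadjusted p = 0.605). Without Lepob/+ 4, whose 27.0 CPM was the lowest value, the average effect was 0.20, and without SOD1G93A-Lepob/+ 3 it was 0.24. Without SOD1G93A 2 the difference from WT was 0.24 (unadjusted p = 0.0612), and without WT 4 it was 0.26 (unadjusted p = 0.0533). Its order by mean was Lepob/+ (33.8 ± 5.2 CPM, SD, n = 4), WT (36.2 ± 0.58), SOD1G93A-Lepob/+ (39.1 ± 2.3) and SOD1G93A (44.3 ± 3.0), where neighbours overlapped except the last pair.

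Among libraries rich in lymph node transcripts, Dnajb1 was at 41.3 to 48.1 CPM in 3 SOD1G93A and 36.4 to 36.9 CPM in 2 WT libraries. Among the others it was at 42.8 CPM in 1 SOD1G93A and at 35.5 to 36.0 CPM in 2 WT libraries. With lymph node markers as a covariate the difference from WT was 0.25 ± 0.10 (edgeR unadjusted p = 0.0227, adjusted p = 1). No 100-base stretch of the Dnajb1 exons occurs in another gene's exons, so its count is not open to the sharing that affects Hspa1a.

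The HSP70 exchange factor Hsph1 (chr5:149614287-149636376, minus strand) and the constitutive Hspa8 (chr9:40800984-40810087, plus strand) had their highest group means in Lepob/+, where 1 library stood far above the other 3. Hsph1 was at 22.5, 21.9, 36.6 and 93.2 CPM in Lepob/+ libraries 1 to 4. WT libraries gave 28.8, 30.5, 23.7 and 24.9 CPM. It was at 34.3, 45.1, 28.9 and 31.9 CPM in SOD1G93A and at 33.3, 24.1, 33.7 and 41.1 CPM in SOD1G93A-Lepob/+ libraries. Lepob/+ 4 lay above all 15 others, while Lepob/+ 1 and 2 were the lowest of all 16.

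Hspa8 was at 484, 577, 537 and 923 CPM in Lepob/+ and at 465, 583, 464 and 428 CPM in WT libraries. SOD1G93A libraries gave 583, 649, 515 and 552 CPM, and SOD1G93A-Lepob/+ libraries gave 555, 492, 545 and 689 CPM. The genotypes overlapped in every pair. The log2 fold change in Lepob/+ against WT was 0.38 ± 0.20 for Hspa8 (edgeR unadjusted p = 0.0732, adjusted p = 1) and 0.69 ± 0.37 for Hsph1 (unadjusted p = 0.0864, adjusted p = 1). Without Lepob/+ 4 these were 0.12 and -0.01.

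Hspb1, the small heat shock protein HSP27 (chr5:135887919-135889563, plus strand), was likewise highest in that library, and differed with lymph node content. Lepob/+ libraries gave 51.4, 57.0, 38.7 and 178.8 CPM, and WT libraries gave 39.97, 40.9, 72.9 and 53.5 CPM. SOD1G93A libraries gave 40.8, 30.6, 61.5 and 43.6 CPM, and SOD1G93A-Lepob/+ libraries gave 54.5, 47.1, 68.4 and 65.8 CPM. The 6 libraries rich in lymph node transcripts held 30.6 to 43.6 CPM and the other 10 held 47.1 to 178.8 CPM, with no overlap. Hspb1 was the 1 member of 10 so split, beside 4.23% of all tested genes lower in those 6 libraries without overlap and 15.5% split in either direction.

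The log2 fold change of Hspb1 in Lepob/+ against WT was 0.65 ± 0.40 (edgeR unadjusted p = 0.127, adjusted p = 1) and was -0.10 without Lepob/+ 4. In SOD1G93A-Lepob/+ against SOD1G93A it was 0.42 ± 0.40 (unadjusted p = 0.316, adjusted p = 0.605), and -0.21 with lymph node markers as a covariate. Within the libraries poor in those markers, the 1 SOD1G93A value, 61.5 CPM, lay inside the SOD1G93A-Lepob/+ range of 47.1 to 68.4 CPM. The Hspb1 mean of SOD1G93A was lowest at 44.1 ± 12.9 CPM (SD, n = 4) and that of Lepob/+ highest at 81.5 ± 65.3, and all neighbours in the order overlapped.

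Of the HSP90 genes, Hsp90ab1 (chr17:45567775-45573271, minus strand) was the more even and the more abundant. WT libraries gave 941, 980, 903 and 972 CPM, and Lepob/+ libraries gave 946, 1041, 975 and 1506 CPM. It was at 1038, 1031, 972 and 975 CPM in SOD1G93A and at 1045, 939, 899.6 and 1186 CPM in SOD1G93A-Lepob/+ libraries. Apart from Lepob/+ 4 and SOD1G93A-Lepob/+ 4, values lay between 899.6 and 1045 CPM. The log2 fold change in Lepob/+ against WT was 0.23 ± 0.16 (edgeR unadjusted p = 0.156, adjusted p = 1) and 0.04 without Lepob/+ 4. Hsp90aa1 (chr12:110690605-110702728, minus strand) ranged from 90.0 CPM in Lepob/+ 4 to 170 CPM in SOD1G93A 2, with group means of 116 to 140 CPM, and its log2 fold changes in the 3 comparisons lay between -0.14 and 0.13.

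In Lepob/+ 4, the library with the muscle transcripts, the 10 genes split in direction. It held the highest value of 16 for Hspa8, Hsp90ab1, Hsph1 and Hspb1, at 1.69, 1.54, 3.06 and 3.48 times the median of the other 15. It held the lowest value for Hsp90aa1 and Dnajb1, at 0.7 and 0.68 times that median. Hspa1a (0.95), Hspa1b (0.7), Hspe1 (1.05) and Hspd1 (1.28) stayed inside the range of the others. The TMM factor of Lepob/+ 4 was 0.6644, against 0.9363 to 1.1149 elsewhere, which raises every CPM in it. Before that factor neither Hspa8 nor Hsp90ab1 was highest there. Lepob/+ 4 held 27714 Hspa8 reads of 45.3 M, and SOD1G93A 2 held 28737 of 41.3 M. Hsp90ab1 had 45229 reads in Lepob/+ 4 and 48700 in SOD1G93A 1, of 43.9 M. WT 3, with the next highest muscle marker sum, had 72.9 CPM of Hspb1, the second highest, but 23.7 CPM of Hsph1 and 464 CPM of Hspa8, both below the median of all 16. The muscle marker sum was 52.0 to 4009 CPM (WT), 48.9 to 159600 (Lepob/+), 53.8 to 224 (SOD1G93A) and 50.5 to 196 (SOD1G93A-Lepob/+), with Ckm at 0 counts in 8 libraries, Myh4 in 4 and Myh2 in 3. The part of the muscle transcripts in these values was not tested.

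**Figure D4:**
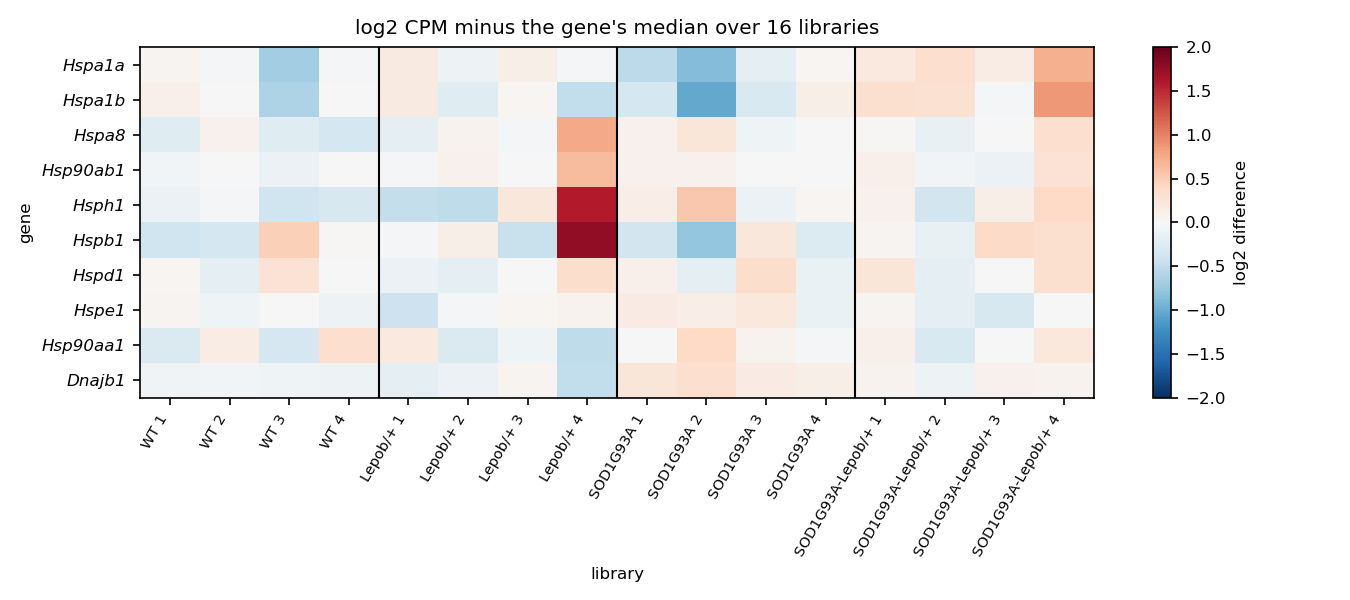
Log2 CPM of the 10 transcripts (rows) in the 16 libraries (columns, genotypes divided by lines) minus each gene's median, red above and blue below. Lepob/+ 4 is high for Hspa8, Hsp90ab1, Hsph1 and Hspb1 and low for Hsp90aa1 and Dnajb1, and Hspa1a and Hspa1b are low together in WT 3 and SOD1G93A 2 and high together in SOD1G93A-Lepob/+ 4.

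Correlations among members moved in both directions without that library. Hspa8 correlated with Hsp90ab1 (r = 0.89) and with Hsph1 (r = 0.88) over 16 libraries, and with r = 0.75 and 0.72 over the 15 without it. Dnajb1 and Hspb1 ran opposite at r = -0.70, and at -0.35 without it. Hsp90ab1 and Hspb1 went from 0.65 to -0.07. In the other direction, Hsph1 and Dnajb1 went from -0.18 to 0.83, Hspa8 and Dnajb1 from -0.20 to 0.62, and Hsp90aa1 and Hsph1 from -0.15 to 0.48. These are descriptions over libraries that share depth scaling, with no test.

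The chaperonin genes overlapped between all genotypes compared. Hspe1 (chr1:55088132-55091307, plus strand) and Hspd1 (chr1:55077835-55088243, minus strand) lie head to head, with exons overlapping by 112 bases. Group means of Hspe1 were 67.0 ± 3.5 CPM (WT, SD, n = 4), 65.0 ± 9.2 (Lepob/+), 73.3 ± 7.5 (SOD1G93A) and 63.5 ± 7.6 (SOD1G93A-Lepob/+). Hspd1 had means of 261 ± 36.0, 259 ± 44.9, 263 ± 45.9 and 274 ± 42.9 CPM in the same order. The log2 fold changes of both in the 3 comparisons lay between -0.21 ± 0.12 (Hspe1 in SOD1G93A-Lepob/+ against SOD1G93A, edgeR unadjusted p = 0.116, adjusted p = 0.403) and 0.13 ± 0.12 (Hspe1 in SOD1G93A against WT, unadjusted p = 0.313). The Hspe1 to Hspd1 ratio of CPM was 0.257 ± 0.035 over the 16 libraries, and log2 CPM correlated with r = 0.49.

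Several members have processed pseudogenes, to which reads can be assigned. Gm15459, a copy that holds 26.26% of the 100-base stretches of Hspa8, was at 19.34 to 21.69% of the Hspa8 CPM in every library and followed it with r = 0.99. Hsp25-ps1 stood at 6.4 to 9.44% of Hspb1 (r = 0.96) and Gm12346 at 9.51 to 14.67% of Hsp90aa1 (r = 0.60). Reads of these parents and copies cannot be fully separated.

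Beyond the 10, 9 further lists of chaperones, their regulators and stress-responsive genes held 87 genes, of which 86 were tested, and 0 had an adjusted p under 0.05 in any comparison (edgeR). Counts at an unadjusted p under 0.05 follow, to be read beside 4.37% of all genes in Lepob/+ against WT, 2.56% in SOD1G93A against WT and 16.5% in SOD1G93A-Lepob/+ against SOD1G93A. Lymph node content is confounded with the last of these. In the HSP70 system, 2 of 21 were higher in Lepob/+ against WT (median log2 fold change 0.11), 1 of 21 was higher in SOD1G93A against WT (-0.01) and 1 was higher and 1 lower in SOD1G93A-Lepob/+ against SOD1G93A (0.08). The first were Hspa1l, a testis-type HSP70, and the J-domain gene Dnajb5, and each had its highest value in Lepob/+ 4. There Dnajb5 was at 285 CPM, beside 15.1 to 26.9 CPM in the other 15 libraries, and Hspa1l was at 31.6 CPM beside 0.205 to 1.498 CPM. Without Lepob/+ 4 the log2 fold change of Dnajb5 was -0.15 and that of Hspa1l -0.18. Dnaja1, a J-domain partner of HSP70 like Dnajb1, was the 1 higher in SOD1G93A against WT, with a log2 fold change of 0.23 ± 0.10 (edgeR unadjusted p = 0.0411, adjusted p = 0.998), and 0.19 without SOD1G93A 3 (unadjusted p = 0.108). Dnajc7, a J-domain protein with tetratricopeptide repeats, was lower in SOD1G93A-Lepob/+ against SOD1G93A by -0.47 ± 0.19 (unadjusted p = 0.0248, adjusted p = 0.261), and by -0.39 without SOD1G93A-Lepob/+ 3 (unadjusted p = 0.0745). The 1 higher was Hspa2, named after its value was seen, which was no longer among them without that library (unadjusted p = 0.166). The highest Dnajc7 values of WT (143 CPM), Lepob/+ (163 CPM) and SOD1G93A (188 CPM) were in libraries rich in lymph node transcripts.

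In the HSP90 system, 1 of 10 was higher in Lepob/+ against WT and 1 in SOD1G93A against WT, in both cases Fkbp5, a co-chaperone and well-known glucocorticoid target. Group means of Fkbp5 were 26.9 ± 5.6 CPM (WT, SD, n = 4), 53.5 ± 22.5 (Lepob/+), 48.9 ± 17.1 (SOD1G93A) and 41.02 ± 23.8 (SOD1G93A-Lepob/+). Its log2 fold changes against WT were 0.99 ± 0.38 in Lepob/+ (edgeR unadjusted p = 0.0194, adjusted p = 1) and 0.86 ± 0.37 in SOD1G93A (unadjusted p = 0.0372, adjusted p = 0.998), and both share the WT libraries. Without Lepob/+ 4 the first was 0.66 (unadjusted p = 0.0981), and without SOD1G93A 3 the second was 0.64 (unadjusted p = 0.13). The small heat shock proteins had 2 of 5 tested genes higher in Lepob/+ against WT and a median of 1.79. All of those named peaked in Lepob/+ 4, with Hspb7 at 226 CPM beside 0.146 to 4.21 CPM in the other libraries, Hspb6 at 383 CPM beside 8.80 to 44.7 CPM, Hspb2 at 54.7 CPM beside 1.43 to 8.50 CPM and Hspb8 at 389 CPM beside 62.3 to 143 CPM. Without Lepob/+ 4 the log2 fold change of Hspb7 was -1.67 and that of Hspb6 -0.52.

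The cytosolic chaperonin CCT, which folds actin and tubulin, had 0 of 8 subunit genes at an unadjusted p under 0.05 in each of the 3 comparisons (medians 0.10, 0.07 and -0.08), and Cct2 had the largest difference of those named, -0.22 ± 0.12 in SOD1G93A-Lepob/+ against SOD1G93A (edgeR unadjusted p = 0.0928). The chaperones of the endoplasmic reticulum had 0 of 14 in each (medians 0.07, -0.02 and 0.14), with the disulfide isomerase Pdia6 at 0.31 ± 0.17 in the last. Of 9 mitochondrial chaperones and proteases, 1 was lower in SOD1G93A-Lepob/+ against SOD1G93A, the protease Htra2 at -0.27 ± 0.12 (unadjusted p = 0.049, adjusted p = 0.301, and -0.23 with unadjusted p = 0.12 without SOD1G93A-Lepob/+ 3), and 0 passed in the other comparisons.

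Of 5 heat shock factor genes and modulators, 1 was higher in Lepob/+ against WT, Hsf2 at 0.52 ± 0.24 (edgeR unadjusted p = 0.0482, adjusted p = 1). Hsf2 was at 43.1 CPM in Lepob/+ 4 and at 14.8 to 20.9 CPM in the other 15 libraries, and without Lepob/+ 4 the difference was 0.12 (unadjusted p = 0.429). Hsf1, the master factor, had log2 fold changes of 0.15 ± 0.25, 0.16 ± 0.25 and -0.17 ± 0.25 in the 3 comparisons. The cold-inducible RNA-binding protein genes Rbm3 and Cirbp, which respond to temperature in the opposite direction, gave -0.45 ± 0.18 (unadjusted p = 0.0228, adjusted p = 0.261) and -0.28 ± 0.19 in SOD1G93A-Lepob/+ against SOD1G93A. Without SOD1G93A-Lepob/+ 3, Rbm3 was at -0.54 (unadjusted p = 0.0142), and without SOD1G93A 2 at -0.37 (unadjusted p = 0.0758). Rbm3 and Cirbp averaged 6.77 to 7.15 log2 CPM in the 6 libraries rich in lymph node transcripts. In the other 10 they averaged 6.29 to 6.83. Of 12 immediate early genes, which rise within minutes of handling or stress, 1 was higher and 2 lower in Lepob/+ against WT, 2 were lower in SOD1G93A against WT and 1 was higher and 1 lower in SOD1G93A-Lepob/+ against SOD1G93A. The higher ones were Nr4a1 and Ier3, named after their values were seen, and Nr4a1 was at -0.36 in Lepob/+ against WT without Lepob/+ 4. Btg2 was the 1 lower in SOD1G93A-Lepob/+ against SOD1G93A, at -0.78 ± 0.24 (edgeR unadjusted p = 0.00572, adjusted p = 0.261). Its highest level, 135 CPM, was in SOD1G93A 2, which is rich in lymph node transcripts. Ier2 was lower in Lepob/+ against WT, at -0.49 ± 0.20 (edgeR unadjusted p = 0.0279), and at -0.40 without WT 4 (unadjusted p = 0.0778). Egr1 stood at -0.90 ± 0.29 in Lepob/+ (unadjusted p = 0.00694, adjusted p = 1) and -0.68 ± 0.29 in SOD1G93A against WT (unadjusted p = 0.0308, adjusted p = 0.998), and Fos at -1.21 ± 0.47 in SOD1G93A against WT (unadjusted p = 0.0217, adjusted p = 0.998). WT 4 held the highest level of both, 145 CPM of Egr1 and 109 CPM of Fos. Without it Egr1 was at -0.61 in Lepob/+ (unadjusted p = 0.0335) and -0.40 in SOD1G93A (unadjusted p = 0.147), and Fos at -0.23 in SOD1G93A (unadjusted p = 0.342). Hspa1a itself correlated with the mean of the immediate early genes at r = -0.27 over 16 libraries, a description only.

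The genes whose pattern was most like the members were named by correlation of log2 CPM over 16 libraries, again with no test. For the mean of the standardised levels of Hspa1a, Hspa1b, Dnajb1, Hsph1 and Hspb1, these were Vmp1 (r = 0.90), Zfp667, Aff4, Sgsm3 and Gle1 (0.82). For that of Hspa8, Hsp90aa1, Hsp90ab1, Hspd1 and Hspe1, these were Ptrh2 (r = 0.85), Atp6v1d, Gm17484, Cct7 and Eif3b (0.82). Without Lepob/+ 4, 3 of the first 5 (Vmp1, Aff4, Gle1) and 1 of the second 5 (Ptrh2) stood again among the top 5, and the second set then held Ahsa1 and Ptges3, both HSP90 co-chaperones. For Hspa1a and Hspa1b alone, a choice made after the values were seen, the closest gene was Tmem30b (r = 0.93, and 0.94 without Lepob/+ 4).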

How the data were processed

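Qiazol and a lipid RNeasy kit gave the iWAT RNA, which was sequenced as paired-end reads of 100 bases. The methods name a stranded TruSeq kit and the labels a NEBNext Ultra kit, so it is not known whether the libraries kept strand. The authors trimmed reads with fastp, aligned them to mm10 with HISAT2 2.1.0 and assigned reads that mapped once to genes with featureCounts 2.0.2 (versions from the submitters' processing notes), and the deposited values are raw counts per Ensembl ID. The strand setting and annotation release are not given in the sources used here. IDs were matched to symbols, positions and exon lengths through GENCODE M21 (GRCm38), and 54723 of 54752 matched.

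All 16 libraries entered one edgeR 4.0.16 fit (R 4.3.3), with TMM scaling, genes kept by filterByExpr (minimum count 10, total 15), a robust quasi-likelihood test and Benjamini-Hochberg adjustment (threshold 0.05). CPM used TMM-scaled library sizes, and CPM per kb divided by exon length. SE is the log2 fold change over the root of F. The fit was run on simulated counts with a smaller common spread than these data and larger changes than those of the 10 genes. That run checks the code and does not measure the power here. Named beside the 10 genes were, per further list, up to 4 genes with the smallest unadjusted p in the 3 comparisons, and the 5 genes most correlated with each of 2 member sets. The members and lists were chosen with earlier results of these data known. Alternatives were DESeq2 1.42.0 and its size factors, other filters, a replicate block, lymph node or mammary epithelium covariates (the latter chosen after seeing the data), summing Hspa1a with Hspa1b, fitting the compared genotypes only, and leaving out libraries (for genes of the further lists, chosen after seeing the data). No 2 libraries of a genotype agreed within sampling noise (chi-square per degree of freedom at least 43.6). Marker lists for adipocytes, T cells, B cells, lymph node stroma, muscle, macrophages and mammary epithelium were summed per library; macrophage markers summed to 848 to 4389 CPM and B cell markers to 4.21 to 1300 CPM.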

Additional observations from a re-analysis of the deposited data

Results flagged for a closer look

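Of 40 sets of 4 libraries (10 genes in 4 genotypes), 4 held a library whose gap to the nearest other exceeded 0.829 of the whole range, where chance alone gives about 1 in 20. Hspb1 in Lepob/+ 4 was 178.8 CPM, with the other 3 at 38.7 to 57.0 CPM. Hsp90ab1 in the same library was 1506 CPM, with the others at 946 to 1041 CPM. Both values are raised by that library's TMM factor of 0.6644. Hspa1a in WT 3 was 11.7 CPM, with the others at 18.5 to 19.6 CPM. Dnajb1 in SOD1G93A-Lepob/+ 2 was 35.6 CPM, with the others at 39.9 to 40.6 CPM, so the lowest of its genotype lay inside the WT range.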

How the results depend on the processing

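Of 32 log2 fold changes of single members, 19 kept their sign under every alternative run, among them Hspa1a and Hspa1b in SOD1G93A-Lepob/+ against SOD1G93A (0.58 to 0.88 and 0.54 to 0.94 when libraries were left out in turn) and Dnajb1 in SOD1G93A against WT (0.24 to 0.31). The number of members called was 0 under every alternative except DESeq2, which called 1 in SOD1G93A-Lepob/+ against SOD1G93A. Counts of members at an unadjusted p under 0.05 moved as follows: summing Hspa1a and Hspa1b gave 1 in that comparison, DESeq2 or the lymph node covariate gave 1 for the interaction, and the lymph node covariate, the mammary epithelium covariate or leaving out both Lepob/+ 4 and SOD1G93A-Lepob/+ 3 gave 2 for the average Lepob/+ effect. For any difference the count was 3 with no filter, with DESeq2, with the mammary epithelium covariate and without those 2 libraries. With 1 library left out, these counts ran from 0 to 2 (Lepob/+ against WT), 0 to 1 (SOD1G93A against WT), 1 to 3 (any difference and average Lepob/+ effect), 1 to 2 (average SOD1G93A effect) and 0 to 2 (interaction). Over all genes edgeR called 0 in each comparison, whereas DESeq2 called, of 30729 genes with a p (30732 for any difference), 1 in Lepob/+ against WT, 3 in SOD1G93A against WT and 565 in SOD1G93A-Lepob/+ against SOD1G93A (48, 39, 51 and 18 for the average Lepob/+ effect, the average SOD1G93A effect, the interaction and any difference). Without Lepob/+ 3, edgeR called 254 genes for the average Lepob/+ effect, none of them a member, and no other edgeR alternative called more than 3 genes.

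Signs changed as follows. In Lepob/+ against WT, Hspa1b became 0.016 with the replicate block, 0.038 with the lymph node covariate, 0.073 with the mammary epithelium covariate and 0.09 without Lepob/+ 4 and SOD1G93A-Lepob/+ 3, where Hsph1 became -0.015 and Hspb1 -0.10. In SOD1G93A against WT, Hspb1 became 0.01 with the lymph node covariate, and Hspd1 became -0.005 with DESeq2 size factors, -0.009 with the filter of 1 CPM in 4 libraries, -0.007 without those 2 libraries, and -0.034 with the compared genotypes only. In SOD1G93A-Lepob/+ against SOD1G93A the lymph node covariate gave 0.023 for Hspa8, -0.02 for Hsp90ab1, -0.206 for Hspb1 and -0.091 for Hspd1, the mammary epithelium covariate gave -0.017 for Hsp90ab1, and leaving out the 2 libraries gave 0.02 for Hspa8. With 1 library left out, ranges that cross 0 were, in Lepob/+ against WT, -0.142 to 0.09 (Hspa1b), -0.014 to 0.91 (Hsph1), -0.098 to 0.876 (Hspb1), -0.108 to 0.052 (Hspe1) and -0.154 to 0.077 (Hspd1). In SOD1G93A against WT, Hspd1 ran from -0.128 to 0.098. In SOD1G93A-Lepob/+ against SOD1G93A they were -0.114 to 0.057 (Hspa8), -0.18 to 0.004 (Hsp90aa1), -0.063 to 0.075 (Hsp90ab1), -0.207 to 0.063 (Hsph1) and -0.021 to 0.183 (Hspd1). The cause of these shifts was not tested. The replicate block changed no other sign and no call. Same-numbered libraries deviated together in 5 of 24 pairs (r over 0.1) and apart in 8. The libraries also differ in lymph node and muscle transcripts, so this check cannot exclude that the numbers pair mice.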
